A study of Mus musculus with 36 samples.

Results

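Molecular chaperone genes were followed in mouse cells through RNA of purified P-bodies, the presort cytoplasm, polysome-bound RNA and total RNA. The members were the gene symbols of the count tables that named an Hsp70 or Hsp110 (Hspa, Hsph1), an Hsp90, a subunit of the cytosolic chaperonin TRiC (Cct), the mitochondrial chaperonin pair Hspd1 and Hspe1, or a J-domain protein of class A, B or C (Dnaja, Dnajb, Dnajc), leaving out symbols marked as pseudogenes. This name rule gave 73 genes of the 50216 symbols listed over 3 count tables. They were 14 Hsp70-type genes including Hsph1, 3 Hsp90 genes, 9 Cct genes, the 2 mitochondrial chaperonin genes, and 4, 13 and 28 J-domain genes of classes A, B and C. The genes given as markers of the group, Hspa8 and Hsp90ab1, were among the most abundant members in every kind of cell. Per kilobase of exon, Hsp90ab1 stood at 1603 CPM (the read count scaled to the size of its library), Hsp90aa1 at 1005 and Hspa8 at 700.7 in naive cytoplasm. In MEF cytoplasm the order was Hspa5 at 506.6, Hsp90ab1 at 461.6, Hsp90b1 at 425.2 and Hspa8 at 393.9 CPM per kilobase.

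Chaperones bind unfolded or unstable proteins and help them fold, assemble, cross membranes or be degraded. Hsp70 proteins hold short exposed stretches in cycles driven by ATP. J-domain proteins bring them their clients and start ATP hydrolysis, and Hsp110 proteins exchange the nucleotide. Hsp90 acts late in the folding of kinases, receptors and other clients, TRiC encloses actin, tubulin and other proteins in a ring, and the mitochondrial chaperonin does the same for imported proteins. Separate sets of genes serve the endoplasmic reticulum, where the unfolded protein response raises them, and the cytosol, where heat shock factor does. P-bodies are cytoplasmic granules of untranslated mRNA and RNA-binding proteins, among them LSM14A and the helicase DDX6.

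The study compared the RNA of sorted P-bodies with that of the cytoplasm before sorting, in cells that carried a GFP-LSM14A fusion delivered by lentivirus. By the methods this cytoplasm was the resuspended pellet of a further spin after nuclei were removed. It still held the P-bodies, and RNA left in the supernatant was not part of it. Cytoplasm below means this fraction. Duplicate libraries of each fraction were made from naive ES cells (v6.5, kept with LIF and the inhibitors PD0325901 and CHIR99021), from primed ES cells (moved to activin A and bFGF), and from MEFs of OKSM mice, in which doxycycline turns on Oct4, Klf4, Sox2 and Myc. The same fractions came from MEFs at day 3 of reprogramming, either as controls or with an shRNA against Nudt21, and from naive ES cells with a deletion in Ago2. A further 12 libraries held polysome-bound and total RNA, 3 of each, of naive ES cells in which both Ddx6 alleles carried an FKBP12 degron, untreated as control or treated with dTAG-13. The degron and Ago2 knockout cells were grown from edited clones. The GFP-LSM14A transgene was common to all groups, the degron cells included, and both arms of the degron experiment had the tagged Ddx6 alleles. The study describes its replicates as biological. By its methods each P-body sample had a presort cytoplasm aliquot, and each polysome lysate gave a total RNA sample.

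Library totals ran from 6769731 reads in primed cytoplasm to 31185874 in MEF cytoplasm. In the knockdown Nudt21 stood at 4.99 to 5.94 CPM, against 89.1 to 115 in the day 3 controls, and in the Ago2 knockout Ago2 stood at 2.57 to 4.52 CPM, against 67.2 to 111 in naive cells. Ddx6 mRNA is no check of a protein degron. The summed level of 8 MEF markers was 14420 to 40350 CPM in MEFs, 3790 to 5760 at day 3, 1305 to 1853 at day 3 with the Nudt21 shRNA and 0.637 to 2.19 in naive cells, while the 4 ES cell markers summed to 2922 to 5668 CPM in naive cells, 141 to 181 in day 3 control P-bodies, 322 to 332 in day 3 control cytoplasm, 295 to 824 with the shRNA and under 1 CPM in MEFs. At day 3 the ES cell sum was mostly Pou5f1 (Oct4) and Sox2, which the OKSM cassette also encodes. In day 3 cytoplasm, with or without the shRNA, Dppa5a was at 0 to 0.1626 CPM and Utf1 at 0.7311 to 1.088. In bulk RNA a change in the mix of cells cannot be told apart from a change in RNA per cell. MEF P-body library 2 held Scgb1a1 at 43.58 CPM and Sftpc at 42.36, transcripts of lung epithelium that were at 3.595 and 1.936 CPM in library 1 and near 0 in MEF cytoplasm. Their part in the MEF results was not tested. A call count without this library is given for MEF P-bodies against cytoplasm only. For the differences in enrichment that use MEFs, only ranges over all libraries left out in turn cover it. In the Ago2 knockout cytoplasm the 10 largest genes took 25.0% and 41.6% of the reads.

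Promoters are shown first as a description of genes followed below. No link between a promoter motif and a level or a ratio of fractions was tested. RefSeq promoter windows of 300 bases (250 before the start and 50 after) were found for 59 of the 73 members on GRCm38.p6. The members without a window were not searched. They were Hspa8, Hspa9, Hspa13, Hsp90aa1, Hsp90ab1, Cct4, Dnajc2, Dnajc5, Dnajc5b, Dnajc11, Dnajc12, Dnajc18, Dnajc22 and Dnajc30. An endoplasmic reticulum stress element, spelled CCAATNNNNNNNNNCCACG and sought on both strands, occurred in 0.119% of all 32851 windows, and its member windows were those of Hspa5, Hsp90b1 and Dnajc3. The sequences below are the 150 bases before the start of each gene, 5′ to 3′ on the strand of the gene, with a match in capitals; in Hsp90b1 the match printed is on the opposite strand, and its other match lies outside the stretch. They cover chr2:34771940-34772089 on the plus strand, chr10:86705445-86705594 on the minus strand and chr14:118937782-118937931 on the plus strand.
Hspa5: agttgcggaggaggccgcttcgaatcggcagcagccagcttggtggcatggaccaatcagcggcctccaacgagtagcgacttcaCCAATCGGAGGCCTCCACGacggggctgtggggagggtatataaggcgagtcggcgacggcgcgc
Hsp90b1: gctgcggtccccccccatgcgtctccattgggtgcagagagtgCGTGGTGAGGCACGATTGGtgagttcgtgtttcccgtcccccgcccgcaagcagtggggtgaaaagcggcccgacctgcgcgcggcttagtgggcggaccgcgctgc
Dnajc3: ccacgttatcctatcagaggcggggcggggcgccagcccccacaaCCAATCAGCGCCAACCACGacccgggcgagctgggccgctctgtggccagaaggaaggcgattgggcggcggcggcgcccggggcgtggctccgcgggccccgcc

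A heat shock element, spelled GAANNTTCNNGAA and sought on both strands, occurred in 0.603% of the windows and in those of 4 members, Dnajb6, Hspd1, Hspe1 and Hsph1. In Hsph1 the match lay after the start. Hspa8, Hsp90aa1 and Hsp90ab1 had no window to search. Hspd1 and Hspe1 encode the ring and the lid of the same chaperonin and are transcribed away from each other, so the 215 bases between their starts, chr1:55087933-55088147, belong to both windows. The stretch is printed on the plus strand, in the direction of Hspe1, and the capitals mark 2 overlapping matches, 1 on each strand. The mRNAs of this pair are followed below, and any part of the shared region in their ratios was not tested.
Hspd1 and Hspe1: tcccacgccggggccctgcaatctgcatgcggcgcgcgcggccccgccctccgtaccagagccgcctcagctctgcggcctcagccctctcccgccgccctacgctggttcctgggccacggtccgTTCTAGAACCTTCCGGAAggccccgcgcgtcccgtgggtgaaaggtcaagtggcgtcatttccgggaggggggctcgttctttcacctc

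In naive ES cells, P-bodies held more mRNA of several J-domain and endoplasmic reticulum chaperones and of Hspd1 than cytoplasm did, and no TRiC gene was called. Of 70 members tested, 23 were higher in P-bodies than in cytoplasm and 4 were lower (edgeR quasi-likelihood test, Benjamini-Hochberg adjusted p under 0.05), where 22.6% and 15.4% of all 15630 genes tested were called. The median log2 fold change, P-body over cytoplasm, was 0.118 for members and -0.0593 for all genes. Dnajb8, Dnajb7 and Dnajc5b had too few reads to test. Fold changes come from a fit scaled by TMM (trimmed mean of M values), so they differ somewhat from ratios of the CPM values printed beside them.

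Dnajb6, which keeps aggregation-prone proteins soluble, was at 351.3 and 359.6 CPM in naive P-bodies and at 127.3 and 172.6 in cytoplasm, a log2 fold change of 1.47 ± 0.14 (SE, n = 2 libraries a fraction, adjusted p = 0.00137 by edgeR). Dnajc2, which binds the ribosome with Hsp70 and folds nascent chains, was at 207 and 220.7 CPM against 107.7 and 93.68 (1.30 ± 0.13). Both P-body libraries of each gene lay above both cytoplasm libraries. The endoplasmic reticulum set had 7 of 9 members higher and none lower in naive P-bodies. Hspa13 was at 39.55 and 43.53 CPM against 17.15 and 20.51 (1.37 ± 0.14), and Dnajb9, a J-domain cofactor for misfolded secretory proteins, at 14.39 and 13.85 against 3.758 and 5.918 (1.77 ± 0.26). Dnajc3, a J-domain protein of the endoplasmic reticulum that also restrains the kinase PERK, was higher by 0.94 ± 0.14. Hsp90b1, the Hsp90 of this compartment, was at 1085 and 1090 CPM against 823.7 and 715.5 (0.72 ± 0.12), and Hspa5, its Hsp70 (BiP), at 1115 and 1116 against 968.3 and 933.9 (0.45 ± 0.10). The 5 members with values here kept their fractions apart without overlap. Outside the name rule, Hyou1, an Hsp110 of the same compartment, was lower in naive P-bodies (-0.68 ± 0.12, adjusted p = 0.00872 by edgeR). Canx was higher (0.49 ± 0.10) and Calr was not called.

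The mitochondrial pair differed in naive cells. Hspd1 was at 1056 and 1058 CPM in P-bodies and 665 and 688.9 in cytoplasm (0.86 ± 0.09, adjusted p = 0.00164), while Hspe1 was at 123.1 and 121.6 against 137.2 and 171 (-0.11 ± 0.12, adjusted p = 0.51). Among Hsp90 genes, the heat-inducible Hsp90aa1 was at 5370 and 5459 CPM against 3721 and 4179 (0.68 ± 0.09), and the constitutive Hsp90ab1 at 3836 and 3877 against 4961 and 4651 (-0.10 ± 0.10, adjusted p = 0.475). None of the 9 Cct genes passed the test, and their median was -0.0584.

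The members lower in naive P-bodies were the stress-inducible Hsp70 genes Hspa1a and Hspa1b, Hspa2, and Dnajc30. Hspa1b was at 8.844 and 9.63 CPM in P-bodies against 28.29 and 30.99 in cytoplasm, and Hspa1a at 6.105 and 6.128 against 17.68 and 21.83; both differed by -1.46 on the log2 scale (SE 0.15 and 0.19). These 2 genes are near-identical copies, so how reads were divided between them is uncertain. Scaled and fitted together with all other groups, the naive comparison called 27 members higher and 10 lower. Without P-body replicate 1 or 2 it called 9 or 8 members, and without cytoplasm replicate 1 or 2 it called 51 or 53. Of the 14 genes of the naming rule called here, 4 (Dnajb6, Dnajc2, Hspa13 and Hspa1b) were called in every setting tried. The other 10, among them Hspd1, Hspa5, Hsp90b1, Dnajb9, Dnajc3, Hsp90aa1, Hspa1a and Hspa2, were lost when either naive P-body replicate was left out.

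**Figure D1:**
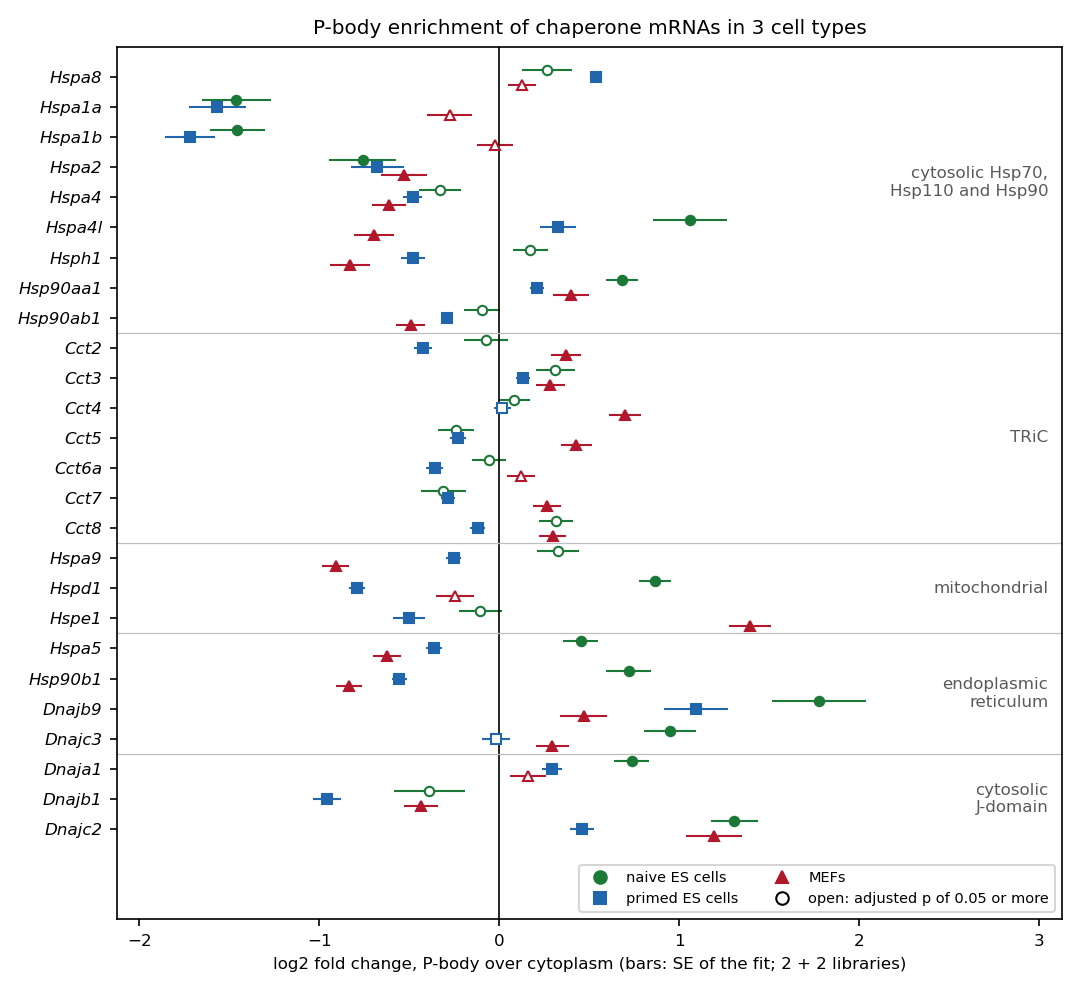
P-body enrichment of 26 chaperone genes in naive ES cells (green circles), primed ES cells (blue squares) and MEFs (red triangles), as log2 fold change of P-body over cytoplasm with bars of 1 SE and 2 libraries a fraction; open symbols had an adjusted p of 0.05 or more. Hspd1, Hspa5 and Hsp90b1 lie to the right in naive and to the left in primed cells, the Cct genes lie right of 0 in MEFs, and Hspa1a and Hspa1b lie far left in both kinds of ES cell.

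In primed ES cells, the cells of a later pluripotent state, most Hsp70-type genes and both mitochondrial chaperonin genes were lower in P-bodies than in cytoplasm, while Hspa8 and the Hsp110 gene Hspa4l were higher. Of 68 members tested, 23 were higher and 23 lower, where 26.5% and 24.2% of all genes were called, and the member median was -0.0715 against 0.00063 for all genes. Of the 14 Hsp70-type genes 9 were lower and 2 higher, of 8 Cct genes tested 5 were lower and 1 higher, and of the class C J-domain genes 13 were higher and 3 lower. All 11 genes of a list of heat-inducible chaperones that also held the constitutive Hspa8 and Hsp90ab1 were called, 7 lower and 4 higher.

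Hspd1 was at 479.5 and 478.5 CPM in primed P-bodies and at 858.9 and 840.8 in cytoplasm, a log2 fold change of -0.79 ± 0.04 (adjusted p = 1.77e-08 by edgeR), and here Hspe1 was lower too (106.1 and 102 CPM against 166.9 and 135.9, -0.50 ± 0.09). Hsp90b1 was at 1118 and 1085 CPM against 1721 and 1598 (-0.56 ± 0.04), and Hspa5 at 1254 and 1261 against 1735 and 1585 (-0.36 ± 0.04). These 4 genes had every P-body library below every cytoplasm library. Hspa1b stood at 14.66 and 16.18 CPM against 59.51 and 45.03 (-1.72 ± 0.14), and Hspa1a at 14.16 and 15.61 against 53.31 and 37.52 (-1.57 ± 0.16). Dnajb1, the J-domain partner of inducible Hsp70, was at 61.06 and 65.81 CPM against 124.8 and 127.8 (-0.96 ± 0.08). Dnajc13, a J-domain protein of endosomes, was at 75.67 and 84.64 CPM against 176.3 and 174.3 (-1.09 ± 0.07).

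Higher in primed P-bodies were Dnajc28 (23.57 and 22.59 CPM against 9.011 and 7.981, 1.48 ± 0.15) and Dnajc21, a factor of ribosome maturation (79.21 and 77.07 against 26.15 and 47.01, 1.11 ± 0.18). Hspa8, the constitutive Hsp70 that also strips clathrin from vesicles, was at 3917 and 3858 CPM against 2802 and 2686 (0.54 ± 0.03, adjusted p = 6.29e-08). Hspa8 had been at 3074 and 3097 CPM against 2554 and 3473 in naive cells, where the cytoplasm libraries lay on both sides of the P-body ones. Of 27 genes of the naming rule called in primed cells, 20 were called in every setting; a fit that held all groups together called 30 members in place of 46.

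MEF P-bodies held more mRNA of most TRiC genes than MEF cytoplasm. They held less of most Hsp70-type genes, the Hsp110 genes included, but not of Hspa8. Of 67 members tested, 27 were higher and 22 lower, with 26.6% and 28.7% of all genes called, and the medians were 0.0794 for members and 0.0314 for all genes. Of 8 Cct genes tested 7 were higher, all 8 estimates were above 0, and their median was 0.332. Cct4 was at 468.1 and 527.8 CPM in P-bodies against 295.7 and 311.3 in cytoplasm (0.70 ± 0.09, adjusted p = 0.000151), and Cct2 at 283.9 and 282.7 against 219.5 and 214 (0.37 ± 0.08). Cct6a was at 390.8 and 395.8 CPM against 361.8 and 352.7 (0.12 ± 0.08) and did not pass.

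Hspe1 was at 290.7 and 244.9 CPM in MEF P-bodies against 93.2 and 108.6 in cytoplasm (1.39 ± 0.12, adjusted p = 1.32e-05). Its partner Hspd1 was at 351.6 and 439.5 against 466.1 and 461.4 (-0.25 ± 0.11, adjusted p = 0.0802), so the pair parted again, with the other gene higher than in naive cells. Dnajc15 and Dnajc19, J-domain proteins of the motor that pulls proteins into mitochondria, were at 77.03 and 64.46 CPM against 23.54 and 23.03 (1.58 ± 0.12) and at 92.2 and 81.77 against 29.54 and 40.71 (1.29 ± 0.15). Hspa9, the Hsp70 of the same motor, went the other way, at 533.6 and 535.2 CPM against 998 and 984.4 (-0.91 ± 0.07).

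Of the Hsp70-type genes 9 of 14 were lower in MEF P-bodies and none was higher. Hspa8 was at 1771 and 1967 CPM in P-bodies against 1713 and 1675 in cytoplasm and was not called. The Hsp110 genes Hsph1, Hspa4l and Hspa4 differed by -0.83 ± 0.11, -0.70 ± 0.11 and -0.61 ± 0.09. Hsp90b1 was at 941 and 1004 CPM against 1720 and 1709 (-0.84 ± 0.07), and Hspa5 at 1466 and 1347 against 2197 and 2087 (-0.62 ± 0.08), both below the cytoplasm in each library. Hspa1a and Hspa1b, which were low in ES cell P-bodies, were at 16.63 and 17.49 CPM against 19.56 and 21.26, and at 47.51 and 48.98 against 46.97 and 50.11, and neither passed. Without cytoplasm replicate 1 or 2 the MEF comparison called 32 or 31 members, and without P-body replicate 2, the library with the lung transcripts, it called 53; the losses included Cct2, Cct3, Cct7 and Cct8 without either cytoplasm replicate.

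The naive, primed and MEF enrichments share no library, and 10 members were higher in P-bodies in all 3: Dnaja2, Dnajb4, Dnajb6, Dnajb9, Dnajb14, Dnajc1, Dnajc2, Dnajc8, Dnajc19 and Hsp90aa1. They were 15.2% of the 66 members tested in all 3, where 5.32% of all genes were higher in all 3. Hspa2, an Hsp70 abundant in testis, was the single member lower in all 3, as were 4.5% of all genes. Genes called in opposite directions in naive and primed cells were Hspa5, Hsp90b1, Hspd1 and Dnajc27, all higher in naive and lower in primed P-bodies, as were 1.61% of all genes. Lower in primed and higher in MEF P-bodies were Cct2, Cct5, Cct7, Cct8 and Hspe1, with 3.96% of all genes. Of the 66 members 62 (93.9%) were called in at least 1 of the 3 kinds of cell, beside 83.7% of all genes, and Dnaja4, Dnajb11, Dnajb12 and Dnajc22 were tested in each without a call.

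The differences in enrichment were then tested as interactions. Between primed and naive cells, 17 members were less enriched in primed P-bodies and 3 more, where 13.9% and 11.4% of all genes were called. Hspd1 had the best-supported difference (-1.52 ± 0.09 on the log2 scale, adjusted p = 0.000102 by edgeR), followed by Hsp90b1 (-1.13 ± 0.13) and Hspa5 (-0.68 ± 0.11). The endoplasmic reticulum set had 6 of 9 members less enriched in primed than in naive P-bodies and none more. No Cct gene was called. Without naive P-body replicate 2 the comparison called 8 members and without naive cytoplasm replicate 1 it called 38.

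Between MEFs and naive cells 14 members were more enriched in MEF P-bodies and 20 less, where 19.8% and 21.5% of all genes were called and the median of all genes stood at 0.174. Of 9 Cct genes, 5 were more enriched in MEFs (Cct2, Cct4, Cct5, Cct6a and Cct7) with a median of 0.765; all 9 estimates were above 0, but in the fit of all groups Cct3 and Cct8 stood at -0.04. That fit, whose median over all genes was -0.03 against 0.17 here, called 12 members more and 27 less enriched. Hspe1 was more enriched by 1.69 ± 0.19 and Hspd1 differed by -0.92 ± 0.16. Hspa1b (1.62 ± 0.17) and Hspa1a (1.38 ± 0.23) were more enriched than in naive cells. Hspa13, an Hsp70-like protein of microsomes, was at 1.37 in naive cells and differed by -1.80 ± 0.18, and 6 of the 9 endoplasmic reticulum members were less enriched in MEFs. Of the 18 named genes called, 15 were called in every setting, and Cct2, Cct6a and Cct7 were not. Leaving out 1 library gave 26 to 40 members.

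At day 3 of reprogramming no member was called in the controls, where 0.196% of all genes were called higher and 0.450% lower; 13 members had an unadjusted p under 0.05, and DESeq2 called 7. Dnajc2 came nearest, at 147.2 and 158 CPM in P-bodies against 89.3 and 88.33 in cytoplasm (0.80 ± 0.12, adjusted p = 0.0504), and passed with the replicate number as a block (adjusted p = 0.0273). Hspe1 was at 147 and 235.5 CPM against 114.8 and 113.3 (0.77 ± 0.23, adjusted p = 0.129), and its P-body libraries differed from each other by more than the lower one differed from cytoplasm. All 8 Cct estimates lay above 0, between 0.115 and 0.313. Without P-body replicate 1 the count was 48 members and without P-body replicate 2 it was 23.

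With the Nudt21 shRNA, 11 of 66 members were higher in P-bodies and 3 lower, where 9.04% and 12.8% of all genes were called. Nudt21 encodes a subunit of the complex that sets where transcripts are cleaved and polyadenylated. Dnajc19 was at 58.05 and 50 CPM against 38.81 and 34.93 (0.56 ± 0.12), Dnajc2 at 172.1 and 174.6 against 109.7 and 128.1 (0.55 ± 0.10), and Dnaja1, a major J-domain partner of Hspa8, at 298.1 and 256.5 against 215.5 and 183.3 (0.48 ± 0.11). Hspa8 was at 5558 and 5201 CPM against 4447 and 4248 (0.32 ± 0.08, adjusted p = 0.0163). Cct3, Cct4, Cct5 and Cct7 were higher by 0.27 to 0.35, and all 8 Cct estimates were above 0. Lower in these P-bodies were Dnajc21 (-0.53 ± 0.15), Dnajc13 (-0.41 ± 0.10) and Dnajc16 (-0.33 ± 0.10). The fit of all groups called 11 higher and none lower. Leaving out cytoplasm replicate 1 or 2 left 2 calls each, and leaving out P-body replicate 2 gave 30.

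Day 3 control cells differed from MEFs in the enrichment of 15 members, 13 higher and 2 lower, where 9.59% and 5.13% of all genes were called. DESeq2 called 14 higher and 5 lower and the fit of all groups 15 and 6. Dnajc13 (1.18 ± 0.16), Dnajc7 (0.97 ± 0.16), Hspa9 (0.90 ± 0.17), Hsp90b1 (0.74 ± 0.15) and Hspa5 (0.64 ± 0.13) were all lower in MEF P-bodies than in MEF cytoplasm, and at day 3 Hspa9, Hsp90b1 and Hspa5 stood at -0.05, -0.13 and -0.02. Leaving out either day 3 cytoplasm replicate left 1 call and leaving out MEF cytoplasm replicate 1 or 2 left 2 or 5, while leaving out day 3 P-body replicate 1 or 2 gave 25 or 29. Between knockdown and control at day 3 no member was called (0.00% of all genes higher and 0.0118% lower), with 5 members at an unadjusted p under 0.05 and 0 called by DESeq2; without control P-body replicate 1 the count was 12.

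In Ago2 knockout ES cells, which lack an Argonaute protein that binds microRNAs, 3 of 70 members tested were higher in P-bodies and none lower, where 5.47% and 1.05% of all genes were called. Dnajc2 was at 399.6 and 399.5 CPM against 139.1 and 99.7 (1.72 ± 0.28, adjusted p = 0.00915), Dnajb6 at 312.9 and 308.4 against 159.9 and 99.43 (1.24 ± 0.29, adjusted p = 0.0403), and Dnajb9 at 17.66 and 22.87 against 7.862 and 9.778 (1.16 ± 0.28, adjusted p = 0.044). All 3 were also called higher in naive P-bodies. They were 4.29% of the 70 members tested in both, beside 5.20% of all genes called higher in both. The table lists Hspa14 under 2 gene IDs, and neither was called. With the replicate number as a block, 14 members were called higher and 2 lower, among 15.3% and 9.60% of all genes. Without either P-body replicate no member was called, and without cytoplasm replicate 1 or 2 there were 18 or 8. These libraries come from a table of their own, so no difference from naive cells was tested.

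**Figure D2:**
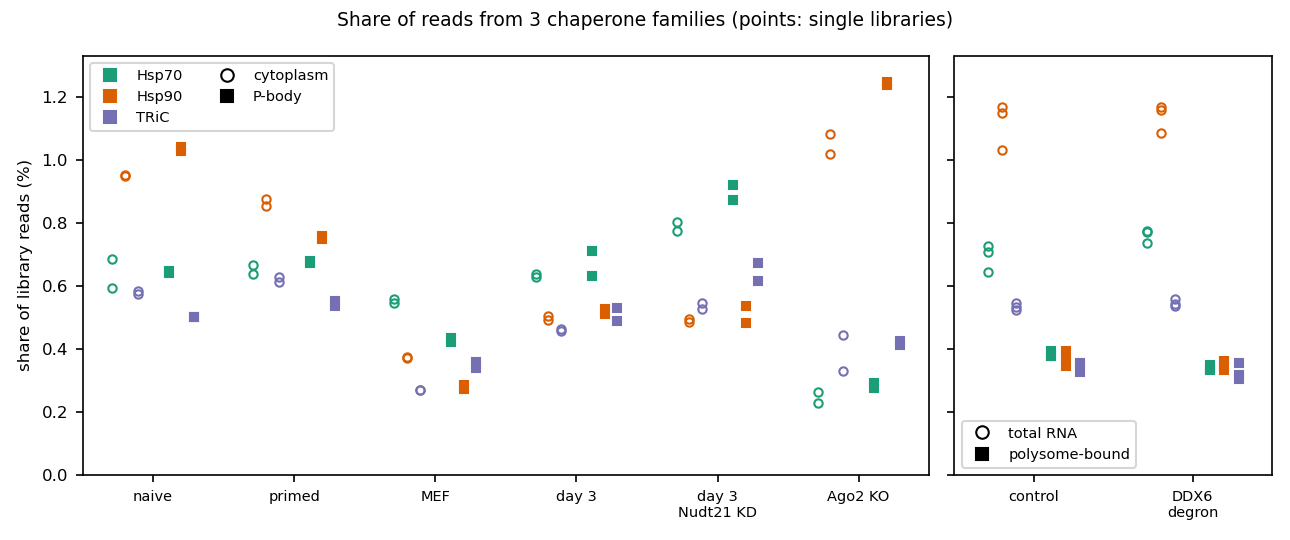
Share of library reads, in percent, taken by Hsp70-type (green), Hsp90 (orange) and TRiC (violet) genes in each library. In the left panel open circles are cytoplasm and squares P-bodies, and in the right panel open circles are total RNA and squares polysome-bound RNA. Hsp90 took 1.03% to 1.17% of total RNA reads and 0.333% to 0.396% of polysome-bound reads, and MEF cytoplasm had lower Hsp90 and TRiC shares than naive cytoplasm. The Ago2 knockout libraries come from a table of their own and are not compared with the rest.

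Levels of the members in cytoplasm also differed between cell types by family and compartment. In MEFs every one of the 9 endoplasmic reticulum members was higher than in naive cells (median 1.72), and 7 of 8 Cct genes tested were lower (median -0.622). Hyou1, an endoplasmic reticulum Hsp110 outside the name rule, was lower in MEFs (-1.53 ± 0.14, adjusted p = 0.00044 by edgeR). The lectin chaperones Canx and Calr, also outside it, were higher. Over all members 26 were higher and 29 lower of 69 tested, where 35.9% and 36.0% of all genes were called. The marker sums given above differ between these groups too, and their part in the levels was not tested.

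Hspa5 was at 2197 and 2087 CPM in MEF cytoplasm and 968.3 and 933.9 in naive cytoplasm, a log2 difference of 1.42 ± 0.12 (adjusted p = 0.000268 by edgeR). Hsp90b1 was at 1720 and 1709 CPM against 823.7 and 715.5 (1.40 ± 0.14), and Dnajc3 at 258 and 275.3 against 48.78 and 65.34 (2.48 ± 0.15). The 3 genes whose promoter stretches are printed above were thus all higher in MEFs, as was every other member of the set. Dnajb4, a J-domain partner of cytosolic Hsp70, was at 60.38 and 54.56 CPM against 2.427 and 1.216 (5.22 ± 0.31), and Hspa4l, an Hsp110, at 48.26 and 55.74 against 6.733 and 6.405 (3.23 ± 0.16).

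On the lower side, Hsp90aa1 was at 601 and 648 CPM in MEF cytoplasm against 3721 and 4179 in naive cytoplasm (-2.41 ± 0.12, adjusted p = 6.26e-05), and Hsp90ab1 at 1418 and 1351 against 4961 and 4651 (-1.55 ± 0.12). Cct7 was at 420.8 and 424.3 CPM against 1533 and 1329 (-1.51 ± 0.14), the lowest of the Cct estimates. Dnajc6 (auxilin), which recruits Hspa8 to clathrin coats, had 1 and 2 reads in the MEF libraries and 39.93 and 51.4 CPM in naive ones. The MEF calls for Cct2, Cct4, Cct5, Cct6a, Cct8 and Hspa8 did not pass without either MEF replicate, when 37 members were called.

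Primed and naive cytoplasm differed less. Of 69 members 9 were higher in primed cells and 16 lower, where 21.6% and 22.1% of all genes were called; the fit of all groups, which shifts the median of all genes to 0.137, called 19 higher and 16 lower. Hspa4l was at 34.27 and 35.29 CPM in primed cytoplasm (2.20 ± 0.19), Hsp90b1 at 1721 and 1598 (0.91 ± 0.13), Dnajc3 at 110.8 and 109.6 (0.76 ± 0.15) and Hspa5 at 1735 and 1585 (0.60 ± 0.11), all above both naive libraries. Lower were Dnajc6, at 3.988 and 3.242 CPM (-3.85 ± 0.23), Hspa2 at 18.76 and 16.77 (-1.06 ± 0.21) and Hsp90aa1 at 2646 and 2509 (-0.81 ± 0.11). In the endoplasmic reticulum set Dnajb11 was lower too, at 82.72 and 78.81 CPM against 95.68 and 95.91 (-0.45 ± 0.12, adjusted p = 0.0283 by edgeR). Apart from it, Hsp90b1, Dnajc3 and Hspa5, no member of that set was called. No Cct gene was called. Without primed replicate 1 or 2 the count was 5 or 10 members, and of the 12 named genes called 2, Hspa4l and Dnajc6, were called in every setting.

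By day 3 of reprogramming the levels differed from MEFs in the other direction. All 9 endoplasmic reticulum members were lower than in MEFs (median -1.01) and 7 of 8 Cct genes tested were higher (median 0.587), within 23 members higher and 30 lower of 66, where 35.5% and 33.7% of all genes were called. The comparison shares the MEF libraries with the one above, so the opposite signs are not independent. Hspa5 was at 1247 and 1238 CPM (-0.95 ± 0.05), Dnajb9 at 6.806 and 6.503 against 22.13 and 25.99 in MEFs (-2.01 ± 0.13), and Dnajc3 at 110.8 and 109 (-1.44 ± 0.06). Hspa8 was at 3611 and 3566 CPM against 1713 and 1675 (0.92 ± 0.05, adjusted p = 5.67e-11), Hsp90aa1 at 1360 and 1292 (0.93 ± 0.05) and Cct3 at 849.3 and 845.3 against 444.1 and 425.9 (0.80 ± 0.05). Of 26 named genes called, 23 were called in every setting.

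With the Nudt21 shRNA, 26 members were higher than in day 3 control cytoplasm and 13 lower, where 24.6% and 25.0% of all genes were called; the fit of all groups called 22 and 6. The 3 Hsp110 genes were all higher: Hspa4l was at 52.78 and 50.74 CPM against 14.73 and 11.78 (1.95 ± 0.12), Hspa4 at 781.9 and 764 against 391.3 and 380.2 (0.99 ± 0.06), and Hsph1 at 163.8 and 164.9 against 124 and 119.8 (0.41 ± 0.07). Dnajc16 was at 65.23 and 65.44 CPM against 15.11 and 15.08 (2.10 ± 0.10, adjusted p = 2.43e-11), and Dnajb9 at 21.71 and 18.87 against 6.806 and 6.503 (1.59 ± 0.14). Of the endoplasmic reticulum set 7 were higher and 1, Hsp90b1, lower (1018 and 1007 CPM against 1228 and 1159, -0.25 ± 0.05). Also lower were Dnajb5 (-0.92 ± 0.14), Hspa2 (-0.88 ± 0.13) and Dnajb4 (-0.59 ± 0.13). The marker sums above differ between these groups too, and their part was not tested. Under the shRNA the MEF sum was lower. The ES cell sum was higher through Pou5f1 and Sox2, which the OKSM cassette also encodes. From this sum a shift towards ES cells cannot be told apart from the cassette, and neither was tested. Pou5f1 was at 402.6 and 437.2 CPM against 193.4 and 179.7, and Dppa5a at 0.1626 and 0 against 0 and 0.1154. Of the naive markers, Nr0b1 was at 11.54 and 10.54 CPM against 0.4488 and 0.3848. Zfp42 was at 2.829 and 2.199 CPM against 0.07479 and 0.5772. Tfcp2l1 and Tbx3 overlapped between the groups, Esrrb was near 0, and Klf4 is in the cassette. The study reported more efficient reprogramming and higher pluripotency gene expression with Nudt21 knockdown.

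**Figure D3:**
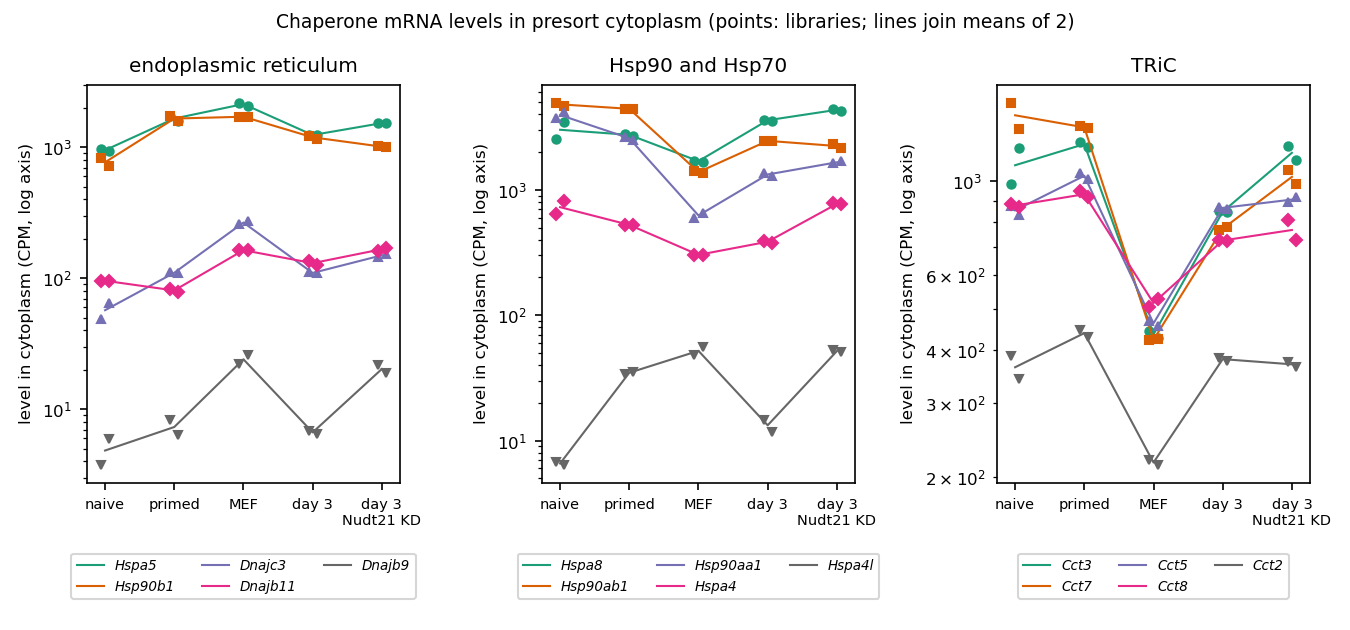
Levels of 15 chaperone mRNAs in cytoplasm, in CPM on a log axis, for genes of the endoplasmic reticulum (left), of Hsp90 and Hsp70 (middle) and of TRiC (right). Points are single libraries and lines join the means of 2 in naive ES cells, primed ES cells, MEFs, day 3 controls and day 3 with the Nudt21 shRNA. The TRiC genes are at their lowest in MEFs, and Hspa4l and Dnajb9 are low in naive cells and day 3 controls and high in MEFs and the knockdown.

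Most Hsp90, Hsp70-type and TRiC mRNAs were lower in polysome-bound than in total RNA, and class C J-domain mRNAs were more often higher than lower. In control cells 29 of 70 members were lower in polysome-bound than in total RNA and 14 higher, where 24.1% and 18.8% of all genes were called, and the members' median log2 ratio was -0.0988 against 0.0233 for all genes. By family, 10 of 13 Hsp70-type genes tested, 3 of 3 Hsp90 genes and 7 of 9 Cct genes were lower and none was higher, while class B J-domain genes had 2 higher and none lower and class C had 11 higher and 6 lower. Reads of all members together made up 2.65% to 2.97% of total RNA and 1.39% to 1.60% of polysome-bound RNA over both arms. Hsp70-type genes took 0.647% to 0.775% of total and 0.332% to 0.395% of polysome-bound reads.

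Hspa5 was at 554.8, 573.2 and 488.8 CPM in control total RNA and at 114.8, 111.2 and 125.5 in polysome-bound RNA, a log2 ratio of -2.37 ± 0.08 (SE, n = 3 libraries a fraction, adjusted p = 1.11e-12 by edgeR). Hsp90b1 was at 702.9, 681.3 and 596 CPM against 157.5, 149.5 and 167.3 (-2.23 ± 0.08), and Hsp90aa1 at 5564, 5244 and 4501 against 1245, 1112 and 1377 (-2.20 ± 0.09). Among 9101 genes with a mean of at least 10 CPM, Hspa5 ranked 14th, Hsp90b1 25th and Hsp90aa1 31st from the lowest ratio. Hspa4 was at 742.2, 773.2 and 673.6 CPM against 220.3, 203.6 and 223.2 (-1.93 ± 0.07) and Hsph1 at 190.7, 187.8 and 166.7 against 58.68, 54.38 and 58.31 (-1.84 ± 0.07), at ranks 82 and 110. In each of these 5 genes every polysome library lay below every total library, and 12 of 52 members of that level were among the lowest 10% of genes and 4 among the highest 10%.

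Hsp90ab1 was at 5443, 5587 and 5242 CPM in total RNA against 2308, 2219 and 2412 (-1.40 ± 0.07), and Hspa8 at 4471, 4602 and 4130 against 2793, 2837 and 2925 (-0.79 ± 0.06). Per kilobase of exon, the polysome-bound level of control cells was highest for Hsp90ab1 (771.3 CPM), then Hspa8 (663), Hspe1 (508.8) and Hsp90aa1 (316.6), whereas Hsp90aa1 was second in total RNA (1298, after 1809 for Hsp90ab1). Cct3 was at 1143, 1198 and 1152 CPM against 579.5, 544.1 and 604.9 (-1.18 ± 0.07), and the other Cct genes of the naming rule lay between -0.94 and -0.50.

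The mitochondrial chaperonin pair parted here as well. Hspd1 was at 1305, 1286 and 1165 CPM in total RNA against 540.4, 484.4 and 552.3 in polysome-bound RNA (-1.42 ± 0.07), and Hspe1 at 451.5, 441.8 and 499.7 against 706.1, 708.1 and 835.7 (0.53 ± 0.08, adjusted p = 7.71e-05). Dnajc19 was at 75.12, 72.26 and 86.38 CPM against 127, 130.9 and 127.3 (0.55 ± 0.07), and Dnajc15 at 26.91, 27.37 and 27.43 against 39.87, 42.87 and 43.35 (0.46 ± 0.07). For these 3 mRNAs the polysome libraries lay above the total libraries without overlap. Of the 7 mitochondrial members 3 were thus higher and 3 lower, Hspd1, Hspa9 (-1.39 ± 0.07) and Dnajc11 (-0.37 ± 0.06), and Dnaja3 was at 0.02 ± 0.06. Dnajb1 (0.07 ± 0.06, adjusted p = 0.384), Dnajb9 (-0.04 ± 0.10) and Dnajc3 (0.01 ± 0.07) did not pass.

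After dTAG-13, 32 members were lower and 17 higher in polysome-bound than in total RNA, where 26.8% and 24.0% of all genes were called. Control and degron ratios share no library: 28 members (40%) were lower in both, 12 (17.1%) higher in both and 0 were called in opposite directions, where 22.9%, 16.5% and 0.0131% of all genes were. Hspa5 was at -2.50 ± 0.04, Hsp90b1 at -2.27 ± 0.05, Hsp90aa1 at -2.23 ± 0.06 and Hspe1 at 0.38 ± 0.05. All 24 named genes called in control cells and all 26 called in degron cells were called in every setting tried.

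**Figure D4:**
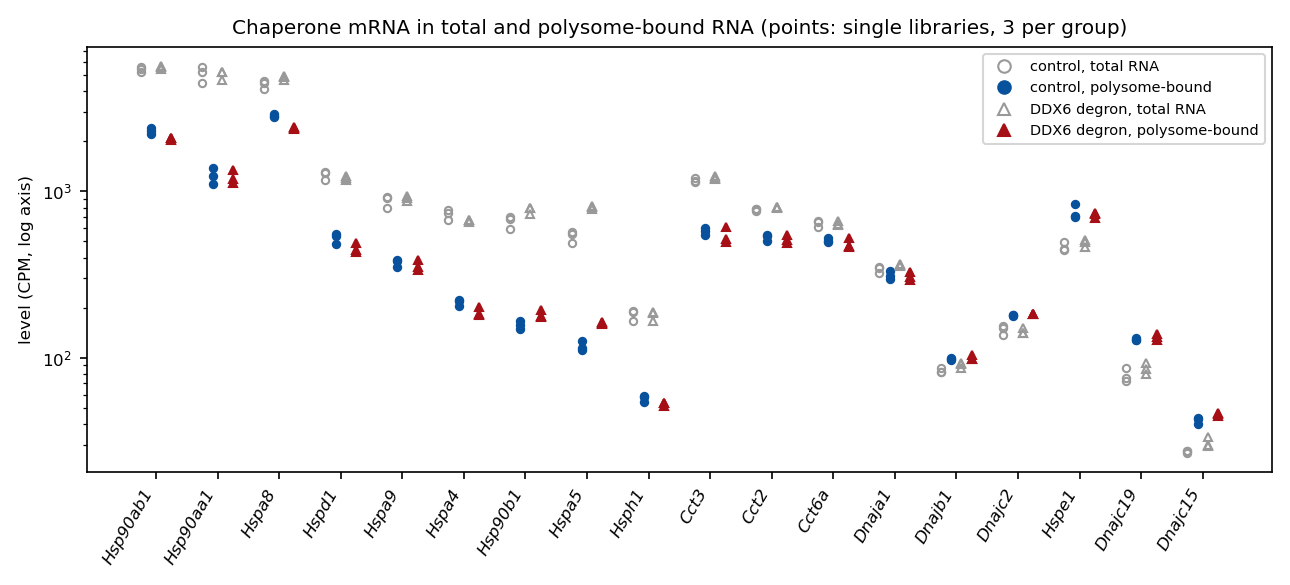
Levels of 18 chaperone mRNAs in total RNA (open grey symbols) and polysome-bound RNA (filled), in CPM on a log axis, with circles for control and triangles for DDX6 degron cells and 1 point for each of 3 libraries. Hsp90aa1, Hspa5, Hsp90b1, Hspa4 and Hsph1 have polysome points far below total points, and Hspe1, Dnajc19 and Dnajc15 have them above.

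The change of the ratio on DDX6 loss, tested as an interaction, called no member and 0.00% of all genes in either direction; 4 members had an unadjusted p under 0.05, and DESeq2 called 1. That gene was Hspa8, whose polysome-bound level was 2793, 2837 and 2925 CPM in control and 2451, 2361 and 2400 in degron cells and whose total level was 4471, 4602 and 4130 against 4920, 4666 and 4876. Its difference was -0.40 ± 0.07 (unadjusted p = 1.57e-05, adjusted p = 0.256 by edgeR), and it passed in edgeR without control total replicate 3 (adjusted p = 0.0339) and with the replicate number as a block (adjusted p = 0.027). Hsp90ab1 was next, at -0.22 ± 0.07 (adjusted p = 0.879).

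In total RNA, 5 members were higher in degron than in control cells and none lower, where 1.24% and 2.07% of all genes were called. Hspa5 was at 811, 780.6 and 818.8 CPM against 554.8, 573.2 and 488.8 (0.58 ± 0.06, adjusted p = 0.000734), with the arms apart, and was called in every setting. The other 4 were Hspa1a (0.92 ± 0.20, at 2.76, 2.791 and 2.636 CPM against 1.231, 1.614 and 1.459), Hspa1b (0.49 ± 0.12), Dnajb2 (0.35 ± 0.08) and Dnajb11, a J-domain partner of Hspa5 (0.28 ± 0.05). None of these 4 was called when any 1 library other than control total replicate 3 was left out; without that replicate 16 members were called. Hsp90b1 was at 794.2, 733.8 and 792.6 CPM against 702.9, 681.3 and 596 (0.23 ± 0.06, adjusted p = 0.0562).

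Naive P-body enrichment and the polysome ratio of control cells were set side by side for 49 members with at least 10 CPM in both. Of 19 members higher in naive P-bodies, 9 (47.4%) were lower in polysome-bound RNA and 5 higher; among all 8518 genes it was 953 of 2684 (35.5%) lower and 705 higher. Across the 49 members Spearman's rho between the 2 measures was 0.014, and across all genes 0.0282. Hsp90aa1, Hsp90b1, Hspa5 and Hspd1 were high in P-bodies and low on polysomes, Dnajc19 was high in both, and outside the 49, at under 10 CPM in the polysome data, Hspa1a and Hspa1b were low in both.

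Transcript features were read from the annotation as a description. Across 54 members with at least 10 CPM, naive P-body enrichment had a Spearman's rho of -0.682 with the GC content of the longest transcript and 0.378 with its length, beside -0.676 and 0.255 across 9505 genes. In primed cells the rho with GC content was -0.423 for members and -0.45 for all genes. In MEFs the rho with length was -0.324 for members and -0.551 for all genes, of the other sign than in naive cells. For the polysome ratio in control cells the rho with length was -0.138 for 52 members and -0.42 for all genes. The points of each rho share their libraries and base composition, and genes are not independent replicates.

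A list of 40 other genes of protein folding, cofactors of Hsp70 and Hsp90, prefoldin, the heat shock factors and lectin chaperones, was tested in the same fits. In P-bodies 11 were higher and 9 lower in naive cells, 10 and 17 in primed cells, and 19 and 11 in MEFs. Of all genes, 22.6% were higher and 15.4% lower in naive, 26.5% and 24.2% in primed, and 26.6% and 28.7% in MEF P-bodies. In the day 3 controls none was called, with the shRNA 8 were higher and 6 lower, and in the Ago2 knockout 1 was higher. The shares of all genes higher and lower were 0.196% and 0.450%, 9.04% and 12.8%, and 5.47% and 1.05%, in the same order. On polysomes of control cells 14 were higher and 15 lower, and in degron cells 12 and 18. Of all genes, 18.8% were higher and 24.1% lower in control cells, and 24.0% and 26.8% in degron cells. In cytoplasm 13 were higher and 14 lower in MEFs than in naive cells, and 16 and 15 at day 3 than in MEFs. The shares of all genes were 35.9% and 36.0%, and 35.5% and 33.7%. Total RNA of degron cells had 1 of the 40 higher, beside 1.24% of all genes. None changed its polysome ratio, where 0.00% of all genes were called in either direction.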

How the data were processed

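RNA was measured in 36 mouse libraries of 16 groups, with 2 or 3 libraries a group. For P-body and cytoplasm libraries other than those of the Ago2 knockout the authors aligned reads to mm10 with HISAT2 and counted genes with featureCounts; Ago2 knockout, polysome and total RNA libraries were quantified with salmon. All 3 deposited tables hold estimated counts, which need not be whole: 17.6% to 25.7%, 5.05% to 6.19% and 11.6% to 13.1% of values were not whole in the fraction, polysome and Ago2 knockout tables. The methods name SMART-Seq for P-body libraries unless snapTotal-seq is indicated. Estimated counts were rounded. Deposited tables of the authors' own fold changes and p-values were not used.

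Totals were 6769731 to 31185874 reads in the fraction table, 13308782 to 29362195 in the polysome table and 15624401 to 17486268 in the Ago2 knockout table. They limit members of few reads, and shares cover counting error only. Genes with at least 10 reads over the libraries of a comparison were tested with edgeR 4.0.16 (limma 3.58.1, R 4.3.3): TMM scaling, quasi-likelihood fit, two-sided, Benjamini-Hochberg adjustment over all genes tested, threshold 0.05. Differences in enrichment or polysome ratio were interaction contrasts. Each comparison was fitted on its own groups. Tables were never compared by test. In simulated counts, 200 genes were changed by a log2 value of 1. The fit recovered 69% of them in the naive P-body comparison (15428 genes). It recovered 47.5% in the MEF minus naive difference (17890 genes) and 99.5% in the control polysome comparison (15241 genes). Of unchanged genes it called 0.0854%, 0.0509% and 0.0864%, in the same order. These rates describe the simulated counts only. In the naive P-body data far more genes were called, 22.6% higher and 15.4% lower. The naive fractions also differed in how close their replicates were, with a Spearman's rho of 0.996 in P-bodies and 0.955 in cytoplasm. Recovery and false calls in the data themselves were not tested.

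Alternatives were DESeq2 1.42.0, its size factors within edgeR, filterByExpr, no filter, all groups in 1 fit, a replicate block and leaving out each library. Named genes were 26 fixed genes and, in each comparison, the 3 members of largest change each way that were called, had a mean of at least 10 CPM and, between 2 groups, did not overlap. Members and lists were chosen with earlier results of these data known. Replicate pairs had Spearman's rho of 0.901 to 0.997 and differed beyond counting noise (chi-square per degree of freedom 1.98 to 548, 24 pairs). Such spread does not show that libraries are independent. Each library counted as a sample because the study describes its replicates as biological. Promoters and transcript features came from RefSeq and the reference annotation on GRCm38.p6; figures were drawn with matplotlib 3.10.9.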

Additional observations from a re-analysis of the deposited data

Results flagged for a closer look

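P-body enrichment differed between kinds of cell for the genes of the naming rule listed here, each flagged because the interaction test of the difference passed (edgeR, adjusted p under 0.05). Values are log2 differences in enrichment. Primed and MEF differences from naive cells share the naive libraries, and the day 3 differences share the MEF libraries with those of MEFs, so they are not independent.

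Between primed and naive cells the enrichment was lower in primed cells for Hspd1 (-1.52), Hsp90b1 (-1.13), Dnajc27 (-1.12), Dnajc3 (-0.82), Dnajc2 (-0.71), Hspa5 (-0.68), Hspa4l (-0.59), Hsph1 (-0.51), Hspa9 (-0.44) and Hsp90aa1 (-0.33). It was higher in primed cells for Dnajc17 (1.04), Dnajc30 (1.11) and Dnajc4 (1.17). Hspa4l sat at the threshold, with an adjusted p of 0.05 after rounding.

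Between MEFs and naive cells the enrichment was lower in MEFs for Hspa13 (-1.80), Hspa4l (-1.57), Hsp90b1 (-1.36), Dnajb9 (-1.11), Hspa9 (-1.05), Hspd1 (-0.92), Hspa5 (-0.89) and Hsph1 (-0.81). It was higher in MEFs for Cct6a (0.37), Cct2 (0.63), Cct7 (0.77), Cct4 (0.81), Cct5 (0.86), Hspa1a (1.38), Hspa1b (1.62), Hspe1 (1.69), Dnajc4 (1.71) and Dnajc15 (2.0).

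Between day 3 controls and MEFs the enrichment was lower at day 3 for Dnajc15 (-0.89) and Dnajb6 (-0.47). It was higher at day 3 for Hsp90ab1 (0.50), Hspa4 (0.53), Hspa5 (0.64), Hsph1 (0.66), Dnajb1 (0.68), Hsp90b1 (0.74), Hspa9 (0.90), Dnajc16 (0.93), Dnajc7 (0.97) and Dnajc13 (1.18). Of these 12 genes 1, Dnajc13, was called in every setting.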

How the results depend on the processing

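No call of a named gene changed direction under the alternatives tried, and the direction of other members was not checked. Of 5917 values of named genes under the alternatives, 5434 stayed on their side of the threshold, 267 fell below it, of which 221 came from leaving out 1 library, and 216 rose past it. With 2 libraries a fraction, against 3 in the polysome data, 1 library can decide a P-body call. Counts of members called moved by over 1.5 times as follows, and the causes were not tested. The fit of all groups shifted the median over all genes from 0.012 to 0.215 for MEF minus naive cytoplasm and from 0.043 to below 0 for the primed minus naive difference in enrichment. In primed P-bodies the fit of all groups called 30 (46 in the report). In day 3 control P-bodies, with none called in the report, DESeq2 called 7, filterByExpr 1, no filter 6, the fit of all groups 11 and the replicate block 1. In the Ago2 knockout, with 3, DESeq2 called 6, no filter 8 and the replicate block 16. The difference between knockdown and control at day 3 went from 0 to 1 with no filter. Total RNA of degron cells, with 5, had 9 in the fit of all groups and 1 with the replicate block. The change of the polysome ratio went from 0 to 1, Hspa8, with DESeq2, no filter or the replicate block. Among members of at least 10 CPM the medians were -0.107 in primed P-bodies, -0.0901 for the MEF minus naive difference and -0.167 for the degron polysome ratio, against -0.0715, 0.025 and -0.11.

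Leaving out 1 library gave 8 to 53 members in naive, 31 to 53 in MEF, 0 to 48 in day 3 control, 2 to 30 in knockdown and 0 to 18 in Ago2 knockout P-bodies. It gave 5 to 37 for primed minus naive cytoplasm. For differences in enrichment it gave 8 to 38 for primed minus naive, 1 to 29 for day 3 minus MEF and 0 to 12 for knockdown minus control. Total RNA of degron cells had 1 to 16 and the change of the polysome ratio 0 to 1.

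By the methods, fractions came from shared preparations, but no source used here says that the replicate numbers follow them. The correlation of same-numbered deviations was -0.0607 in naive, 0.0852 in primed, -0.00798 in MEF, 0.175 in day 3 control, 0.2 in knockdown and 0.602 in Ago2 knockout libraries and -0.0341 to 0.163 in the polysome libraries, so the reported fits have no block, and block values stand beside the calls they change. With the replicate block the counts were 25 in naive, 45 in primed, 52 in MEF and 21 in knockdown P-bodies, 44 and 50 for the polysome ratios of control and degron cells, and 15, 32, 13 and 0 for the differences in enrichment; in cytoplasm they were 24, 54, 53 and 39.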
